A study of Danio rerio with 12 samples.

Results

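Whole zebrafish (Danio rerio) given synthetic miR-101a were compared with untreated zebrafish across all genes. The comparison used 8 of the 12 libraries of the series and 20459 of the 32105 genes in its count table, which were the genes with enough reads to be tested. All animals were of a wild-type strain, were 2 days old and were taken as whole organisms. The 4 libraries of the miR-101a group came from animals with 2 ng of synthetic miR-101a, and the 4 control libraries came from animals with no perturbation. No group that received an unrelated RNA is among these samples, and the route of the dose is not given in the sources used here, so effects of the dosing and effects of the miR-101a sequence cannot be told apart. The sources also do not say how many animals a library holds or whether replicates came from separate clutches, so the spread between libraries may be technical.

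MicroRNAs are short RNAs that bind Argonaute proteins and pair through their seed with sites in messenger RNAs, whose level or translation then falls. In mammals, miR-101 is known for repressing EZH2, the enzyme of Polycomb repressive complex 2 that methylates histone H3. At 2 days a zebrafish embryo is drawing on its yolk, its primitive red cells circulate, its lens fibres and pigment cells are differentiating, and its liver, gut and kidney are still immature. Libraries made with the TruSeq v2 kit hold messenger RNA without strand information, so the synthetic microRNA itself is not measured and overlapping genes on opposite strands cannot be separated.

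Transcripts of a whole embryo were present in every library, among them those of fast muscle (66853 to 93124 counts scaled to library size, CPM, summed over the list), epidermis, liver, blood and lens. Library totals ran from 19804199 to 30383374 counts. Log levels correlated across genes at 0.988 to 0.995 within groups and at 0.969 to 0.974 between groups, and the first principal component, with 65.8% of the variance, separated the groups. The typical spread between replicates was a biological coefficient of variation of 7.26%. Control replicates 1 and 3 were higher than control replicates 2 and 4 in transcripts of the lens (2627 and 3078 against 2071 and 2063 CPM summed) and of cartilage (6175 and 6662 against 5241 and 4943 CPM), and the part of this in the results below was not tested.

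Nearly as many genes were lower as higher with miR-101a, and most changes were small. By edgeR's quasi-likelihood test at an adjusted p under 0.05, 5339 genes were higher (26.1% of those tested) and 4716 were lower (23.1%), together 49.1%. A change of at least 2-fold was reached by 815 higher genes (3.98%) and 454 lower genes (2.22%), or 6.2% in all. The ranges of the 4 miR-101a and the 4 control libraries did not overlap in 9047 genes (44.2%). These percentages are the background against which the counts of each gene group are read. The median log2 change of all genes was 0.02.

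Direction went with level. In the decile of genes with the lowest levels (median 0.633 CPM) the median log2 change was 0.18, with 423 genes higher and 164 lower. It declined in every step to -0.11 in the decile with the highest levels (median 148 CPM), where 412 genes were higher and 962 lower. Changes of at least 2-fold were more often upward at low levels, with 255 higher and 112 lower in the lowest decile, and more often downward at the highest levels, with 14 higher and 41 lower. Across deciles of gene length the median moved from 0.04 in the shortest to -0.03 in the longest. For the lists where this bears most on the reading, the median of all genes at the nearest deciles of level is given beside that of the list.

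**Figure D1:**
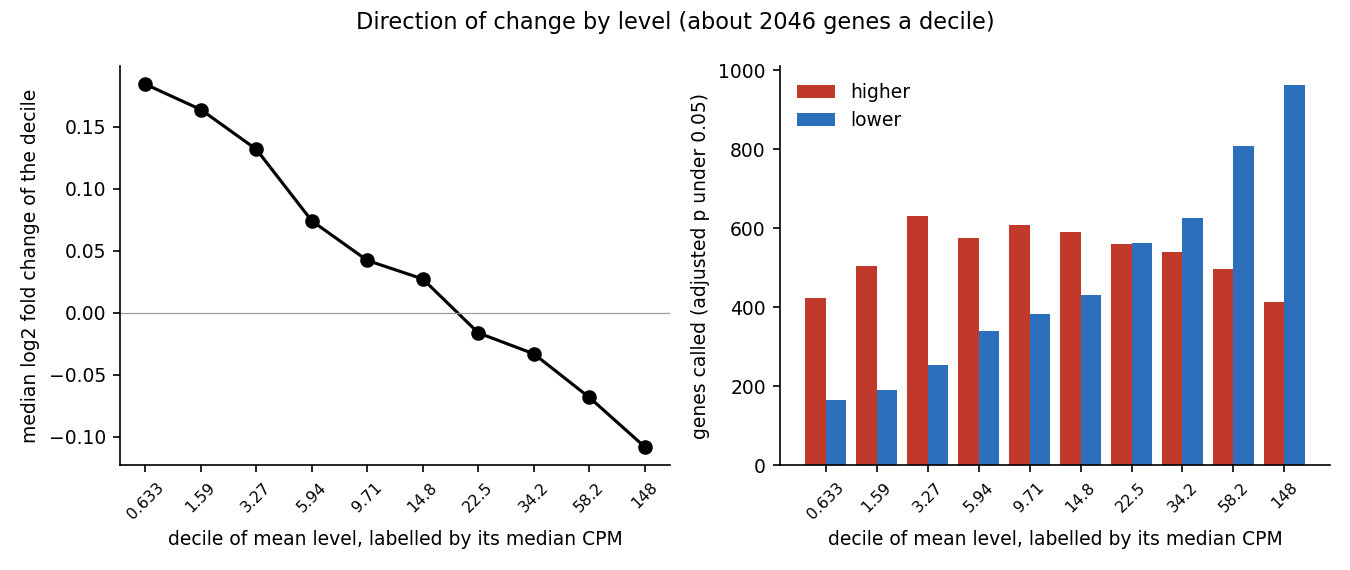
Left, the median log2 fold change (miR-101a over control) of each decile of the tested genes, ordered by mean level and labelled by the median CPM of the decile. Right, the number of genes called higher (red) and lower (blue) in the same deciles. The median runs from 0.18 at the lowest to -0.11 at the highest levels, and the called genes turn from mostly higher to mostly lower.

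**Figure D2:**
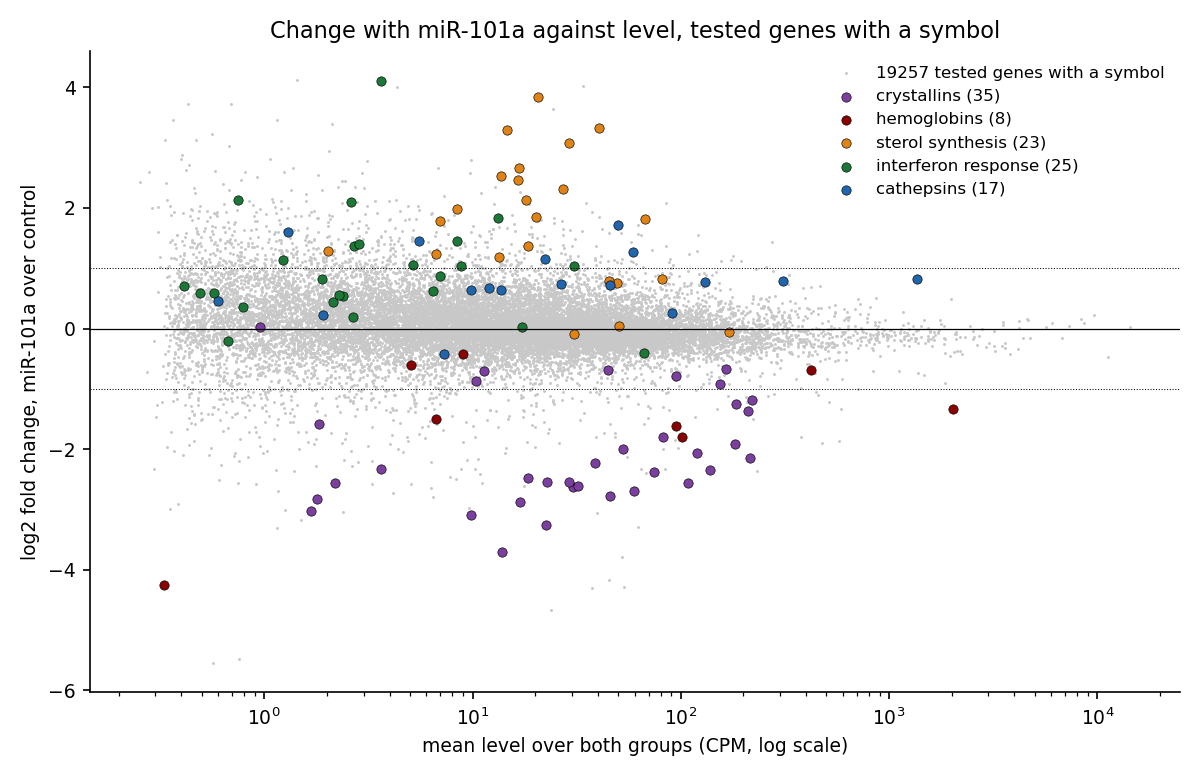
Each point is a tested gene with a symbol, placed by its mean level over both groups (CPM, log scale) and its log2 fold change, with dotted lines at a 2-fold change. Coloured points are the members of 5 gene groups, of which the crystallins and hemoglobins lie mostly below the cloud of all genes and the sterol synthesis genes mostly above it.

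The enzymes that make cholesterol rose almost as a block. Cells make cholesterol from acetyl-CoA through mevalonate, isoprenoids, squalene and lanosterol, and SREBP transcription factors turn these genes on when membrane sterol is scarce. Of 23 tested genes of the pathway 20 were higher and 0 lower, 17 of them at least 2-fold, with a median log2 change of 1.81. CYP51A1 (ENSDARG00000042641), which demethylates lanosterol, was at 6.76, 7.22, 8.33 and 7.11 CPM in the control libraries and at 70.7, 68.2, 94.99 and 61.4 CPM in the miR-101a libraries. That is a log2 change of 3.32 ± 0.15 (adjusted p = 2.3e-07), for n = 4 per group. Values given for rises and falls of single genes are log2 changes ± SE throughout, called by the same quasi-likelihood test. The SE was derived from that test, as the size of the log2 change divided by the square root of its F statistic. The groups were far apart, and miR-101a replicate 3 was the highest and replicate 4 the lowest, an order also seen in the summed levels of the whole list (1157 and 944 CPM). The isopentenyl and farnesyl steps before squalene rose less, with 0.78 ± 0.06 in IDI1 and 0.82 ± 0.07 in FDPS. From squalene to lanosterol the rises were 1.98 ± 0.12 for FDFT1, which makes squalene, 2.31 ± 0.11 for SQLE, which oxidises it, and 3.30 ± 0.12 for LSS, which closes the rings.  DHCR7, an enzyme of the last step, rose by 1.38 ± 0.08. Among the members not called were GGPS1 (-0.10), which leads from farnesyl diphosphate to other isoprenoids, and LBR (-0.06).

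Genes that sense, import and store sterol moved in both directions. Of 28 tested genes 13 were higher and 9 lower, 6 and 2 of them at least 2-fold. ldlra, a receptor that takes up low-density lipoprotein, was at 2.64, 2.65, 3.30 and 2.51 CPM in the control libraries and at 18.3, 15.06, 18.6 and 14.3 CPM in the miR-101a libraries, with no overlap and a log2 change of 2.58 ± 0.12 (adjusted p = 2.8e-10). The second LDL receptor gene ldlrb rose by 1.198 ± 0.08. insig1, which holds SREBP precursors in the endoplasmic reticulum and is itself an SREBP target, rose by 1.93 ± 0.07, and the precursors srebf2 and SREBF1 rose by 1.29 ± 0.06 and 1.37 ± 0.16. SOAT2, which esterifies cholesterol for storage, was at 13.8, 13.7, 15.01 and 13.8 CPM in the control libraries and at 1.74, 2.49, 3.05 and 2.75 CPM in the miR-101a libraries, a log2 change of -2.497 ± 0.13 (adjusted p = 8e-10). The oxysterol receptor NR1H3, which turns on cholesterol export, fell by less than 2-fold (-0.34 ± 0.05). Fatty acid synthesis was mixed as well, with 11 of 22 genes higher and 5 lower. FASN, the fatty acid synthase, went from 28.4 to 30.3 CPM in control to 87.1 to 102 CPM with miR-101a, a log2 change of 1.71 ± 0.05 (adjusted p = 1.1e-11), and the desaturase SCD (ENSDARG00000033662) rose by 2.95 ± 0.29. The elongases diverged, since ELOVL2 rose by 1.82 ± 0.15 while both ELOVL4 identifiers fell (-0.47 and -0.92).

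Interferon-responsive genes were higher. Interferons are cytokines of antiviral defence whose receptors act through STAT proteins and IRF9. Of 51 genes of this response in the count table, 25 had enough reads to be tested. Of these 25 genes 16 were higher and 1 lower, 11 of them at least 2-fold upward. Their median was 0.82 at a median level of 2.68 CPM, where all genes had a median of 0.13 to 0.16. A weakly expressed gene can pass the filter on reads through the group where it is higher alone. The part of this in the counts, here and for the immune genes below, was not tested. isg15, a ubiquitin-like protein made on interferon signalling, was at 0.294, 0.536, 0.387 and 0.348 CPM in the control libraries and at 6.56, 7.83, 7.39 and 5.84 CPM in the miR-101a libraries, a log2 change of 4.11 ± 0.19 (adjusted p = 2.1e-10). The transcription factor irf9 was at 6.25, 5.69, 5.203 and 6.14 CPM in the control libraries and at 20.7, 20.5, 20.8 and 20.6 CPM in the miR-101a libraries, with 1.83 ± 0.08 as its log2 change and with almost no spread among the treated libraries. IRF7 (1.45 ± 0.11), irf3 (2.104 ± 0.22) and stat2 (0.88 ± 0.14) rose too, and so did the RNA sensor IFIH1 (1.14 ± 0.21). The called fall within the list was adar, an RNA-editing enzyme, at -0.41. Outside the list, gvin1l2, named for an interferon-induced very large GTPase, went from 88.7 to 114 CPM in control to 2.66 to 8.08 CPM with miR-101a, a log2 change of -4.29 ± 0.26 (adjusted p = 1.1e-05). The family taken by IFIT, Mx and GBP symbols had 4 of 10 higher and 1 lower. The latter was IFITM5 (-1.84), which shares the first letters of the IFIT symbols but is not an IFIT gene and is not in the interferon list. Among genes whose symbol starts with mhc, which encode antigen-presenting molecules, 7 of 12 were higher and 0 lower (median 0.40 at a median level of 5.12 CPM, where all genes had 0.07 to 0.13), and b2m, the light chain of class I molecules, rose by 1.399 ± 0.17.

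Inflammatory genes rose in part. The list of inflammation and NF-kB genes had 30 of its 53 genes tested, of which 21 were higher, 12 of them at least 2-fold, and 3 lower. Its median was 0.55 at a median level of 8.11 CPM, where all genes had 0.04 to 0.07. SOCS3, an inhibitor of cytokine receptors that STAT3 induces, was at 11.7, 10.7, 11.3 and 11.7 CPM in the control libraries and at 39.4, 35.1, 39.6 and 38.4 CPM in the miR-101a libraries, a log2 change of 1.75 ± 0.06 (adjusted p = 2.4e-11). il1b, which encodes interleukin 1 beta, rose by 1.604 ± 0.32. The chemokine cxcl8a, which draws neutrophils, was at 0.504, 0.215, 0.246 and 0.579 CPM in the control libraries and at 4.85, 1.45, 1.47 and 1.64 CPM in the miR-101a libraries. Its log2 change of 2.66 ± 0.57 (adjusted p = 0.0041) leaned on miR-101a replicate 1 and was 1.99 without it. The collagenase mmp13a (1.88 ± 0.52, adjusted p = 0.024) was at 26.6 CPM in that library against 7.29 to 9.19 CPM in the other treated libraries, and without it the change was 1.204. The mmp13a call was lost when any control library was left out, with adjusted p-values of 0.0557 to 0.0621. The NF-kB subunits divided, with relb (0.58) and nfkb2 (0.67) higher and REL (-0.63) lower. Neutrophil and mast cell markers were higher in 12 of 20 tested genes (median 0.71 at 5.70 CPM, where all genes had 0.07 to 0.13; summed levels 225 to 230.4 CPM in control and 331 to 347 CPM with miR-101a), while macrophage markers had 7 higher and 6 lower of 25, with summed levels of 1399 to 1632 CPM in control and 964 to 1077 CPM with miR-101a. The part of these cells in the inflammatory genes was not tested. AP-1 transcription factors, which respond to cytokines, growth factors and stress, were higher in 9 of 12 genes and lower in 0, with FOSL1 at 2.13 ± 0.21, FOSL2 at 1.41 ± 0.08 and JUNB at 1.61 ± 0.18 (ENSDARG00000074378) and 1.24 ± 0.10 (ENSDARG00000104773). FOSL1 was also part of the inflammation list. The activity-driven genes NPAS4 (ENSDARG00000055752, -3.05 ± 0.22), NR4A1 (-1.74 ± 0.09) and egr4 (-1.37 ± 0.19) went the other way, so the wider list of immediate early genes held 20 higher and 6 lower of 36.

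Genes of the ATF4 and p53 responses and of apoptosis were more often higher than lower, which did not hold for the chaperone lists. ER chaperones and the unfolded protein response had 7 higher and 8 lower of 30 genes, and the cytosolic heat shock response 6 higher and 8 lower of 28. Under amino acid shortage or stress in the endoplasmic reticulum, ATF4 turns on amino acid synthesis genes and DDIT3, a factor that can promote cell death. Of 31 genes of the ATF4 response 21 were higher, 6 at least 2-fold, and 2 lower. DDIT3 was at 9.94, 10.98, 10.97 and 11.4 CPM in the control libraries and at 44.9, 38.7, 31.9 and 39.1 CPM in the miR-101a libraries, a log2 change of 1.83 ± 0.09 (adjusted p = 2.6e-09). atf5b rose by 1.57 ± 0.06 and sesn2, a leucine sensor that restrains mTORC1, by 1.57 ± 0.08, whereas CHAC1, another ATF4 target, was at -0.32. Among p53 response genes 20 of 33 were higher, 4 at least 2-fold, and 7 lower. The cell cycle inhibitor cdkn1a rose by 1.44 ± 0.17, the death receptor fas by 3.04 ± 0.33 and the BH3-only gene bbc3 by 1.62 ± 0.18, but mdm2, the p53 ubiquitin ligase, by only 0.58 ± 0.08, and BAX fell (-0.27) while its paralog baxb rose (0.52). Of 36 apoptosis genes 23 were higher, 6 at least 2-fold, and 5 lower. bada, which encodes a BH3-only protein that binds BCL2 relatives, was at 4.28, 5.33, 5.45 and 4.48 CPM in the control libraries and at 21.5, 21.1, 21.6 and 17.6 CPM in the miR-101a libraries, a log2 change of 2.06 ± 0.10 (adjusted p = 3.8e-10). Caspase genes with a symbol in casp were higher in 11 of 13 cases, 4 of them at least 2-fold. cdkn1a and bbc3 differed in level among treated libraries, at 8.14 to 10.04 CPM and 4.24 to 7.89 CPM, but lay above all control libraries.

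Lysosomal genes formed the broadest rise among the lists of more than 50 genes. Lysosomes degrade proteins, glycans and lipids with acid hydrolases and are acidified by the V-type ATPase. Of 56 tested genes 43 were higher, 12 at least 2-fold, and 3 were lower, with a median of 0.52 and a median of 0.48 to 0.63 in the single treated libraries. Cathepsins, the lysosomal proteases, were higher in 14 of 17 genes. The lysosome list holds cathepsins such as CTSZ as well, so these counts are not independent. CTSZ was at 21.6, 24.6, 23.9 and 23.2 CPM in the control libraries and at 77.1, 73.1, 88.3 and 69.8 CPM in the miR-101a libraries, with no overlap and a log2 change of 1.72 ± 0.07 (adjusted p = 2.1e-10), and CTSA rose by 1.27 ± 0.05. The cathepsin with the highest CPM, ctsla, went from 831 to 1061 CPM in control to 1541 to 1874 CPM with miR-101a. Membrane proteins rose as well, for example scarb2a (1.14 ± 0.06) and LAMP1 (1.22 ± 0.08), and 18 of 26 V-type ATPase subunit genes were higher and 3 lower. The called falls were both identifiers of NPC2, which passes cholesterol out of the lysosome (-0.39 and -1.63), and ACP5. ACP5, the tartrate-resistant phosphatase of osteoclasts and some macrophages, was at 109.9, 98.7, 79.8 and 102 CPM in the control libraries and at 14.2, 3.94, 3.90 and 4.70 CPM in the miR-101a libraries, a log2 change of -3.799 ± 0.42 (adjusted p = 0.0004), or -4.54 without miR-101a replicate 1.

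**Figure D3:**
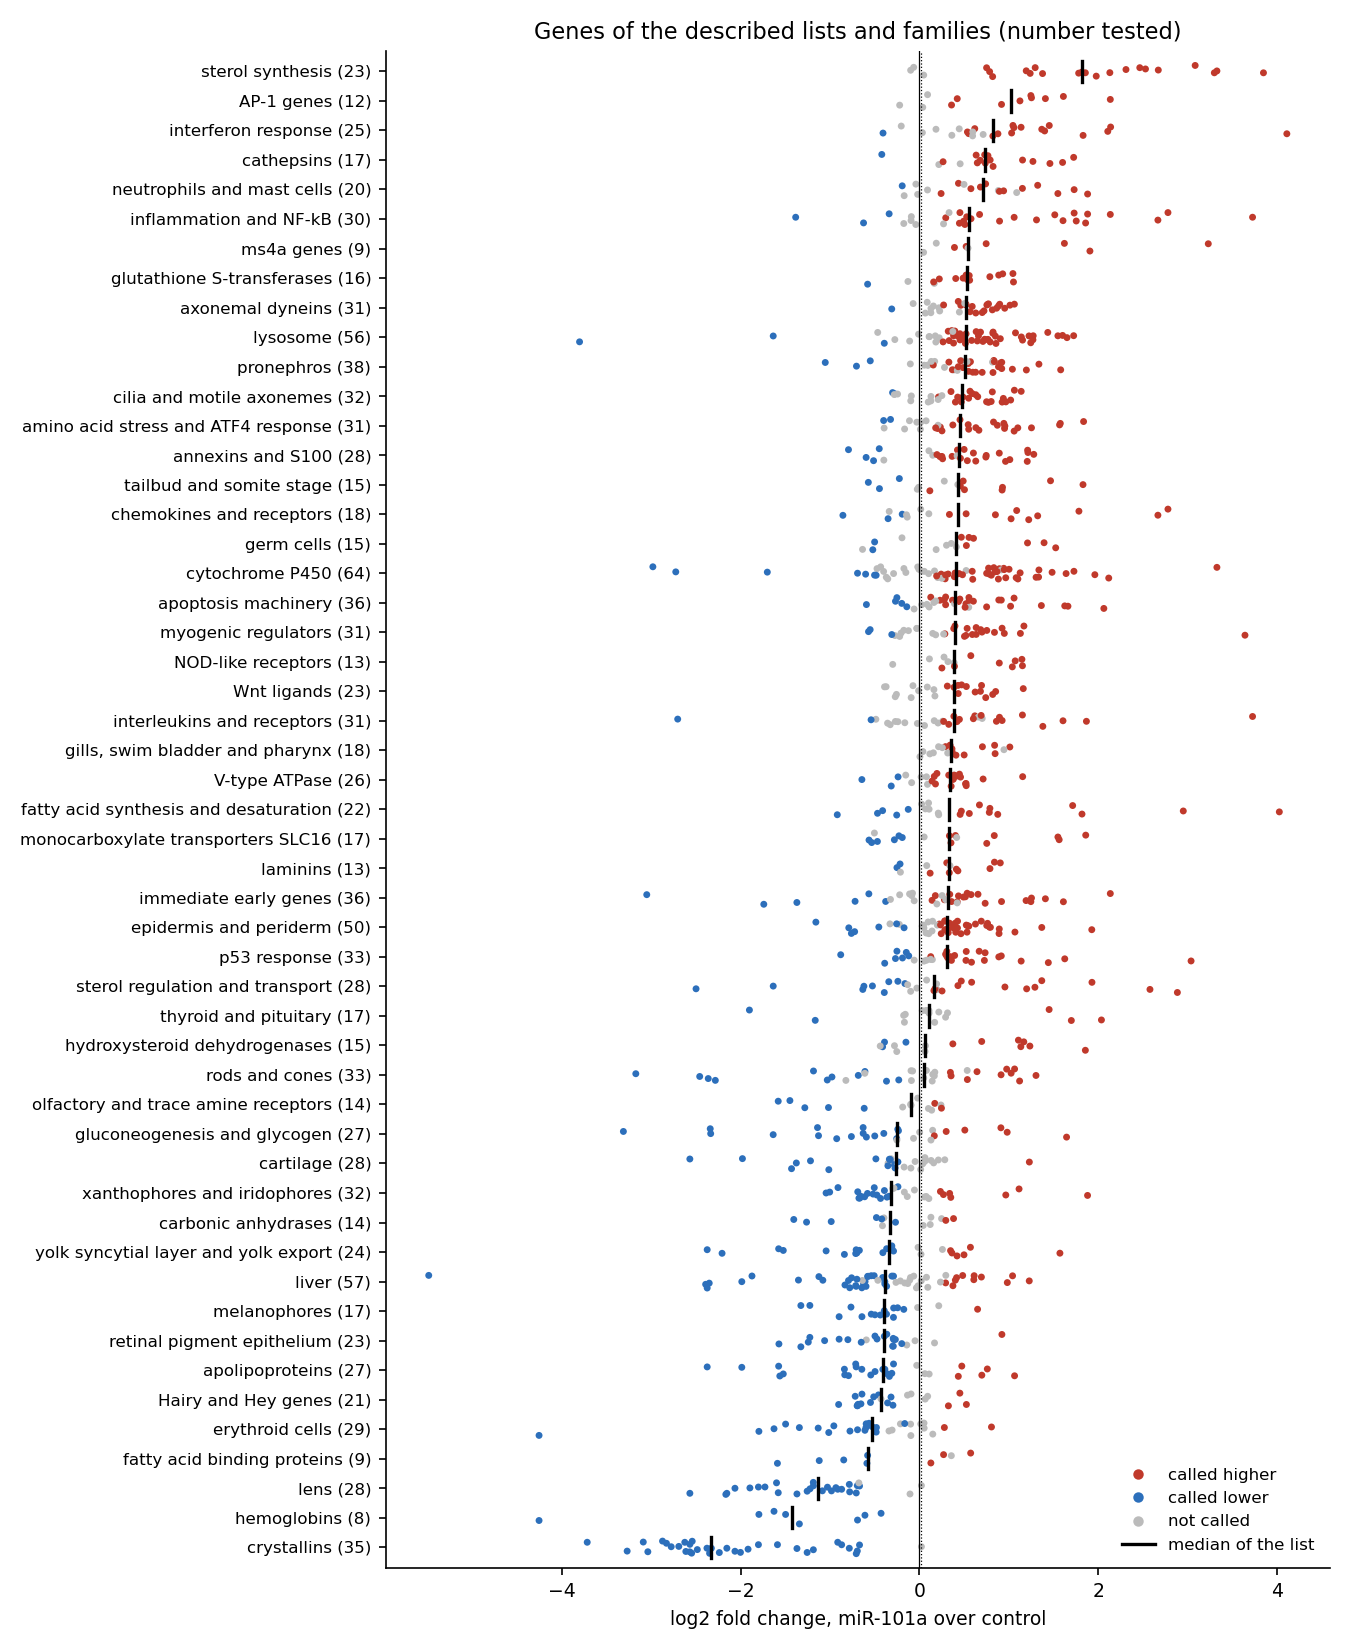
Each point is a tested gene of a described list or family, with its log2 fold change (miR-101a over control) on the horizontal axis; red is called higher, blue called lower and grey not called. Black bars mark the median of each list and the dotted line the median of all genes. Sterol synthesis genes lie at the top with a median of 1.81 and crystallins at the bottom with -2.33.

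The lens list had the lowest median of the tissue lists examined (-1.14). The lens is built of fibre cells filled with crystallins, joined by gap junctions and hydrated by the water channel MIP. Of 35 tested crystallin genes 34 were lower and 0 higher, 28 of them at least 2-fold, with a median log2 change of -2.33. Their summed level was 3178 to 4531 CPM in control and 1033 to 1379 CPM with miR-101a. In neighbour order of the RefSeq assembly GRCz12tu, 19 gamma-crystallin genes (crygm2d genes and crygmxl1) on chromosome 9 followed each other and all fell, with log2 changes of -3.71 to -2.0007. Close copies such as these can share reads, so single values within the cluster are uncertain. crygm2d14 was at 22.3, 24.8, 31.7 and 24.1 CPM in the control libraries and at 1.90, 1.94, 2.72 and 1.26 CPM in the miR-101a libraries, a log2 change of -3.71 ± 0.18 (adjusted p = 2.6e-08). Fibre cell genes outside the crystallins fell too. lim2.1, a membrane protein of lens fibres, was at 41.2, 39.98, 42.4 and 39.9 CPM in the control libraries and at 10.5, 12.3, 11.8 and 9.51 CPM in the miR-101a libraries, a log2 change of -1.90 ± 0.07 (adjusted p = 4e-11), and MIP (ENSDARG00000037285) fell with a log2 change of -1.58. Of the lens list as a whole, which holds crystallins as well, 25 of 28 genes fell, 16 at least 2-fold. The lens transcription factors foxe3 and HSF4 fell with a log2 change of -0.93 ± 0.22 and -1.09 ± 0.27, and CRYBA1, lim2.2 and BFSP1 were not called. In bulk RNA of whole embryos, fewer cells of a type and less RNA per cell cannot be told apart, here and for the tissues below.

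Lists of the retina differed, with called rod and cone genes in both directions and the other lists more often lower. Rod and cone genes had 10 higher and 11 lower of 33 tested. Their summed level was 538 to 593 CPM in control and 455 to 485 CPM with miR-101a. GNB3 (-2.46 ± 0.21), the retinoschisin gene rs1a (-2.36 ± 0.24) and the arrestin sagb (-2.28 ± 0.24) fell, and saga rose (1.12 ± 0.16). The photoreceptor regulator crx fell with a log2 change of -1.18 ± 0.20 and CRX (ENSDARG00000043483) with -1.03 ± 0.15, with control replicate 3 well above the rest of its group in both (43.2 and 38.3 CPM). Retinal interneuron and ganglion cell genes had 22 of 37 lower and 6 higher, with summed levels of 3038 to 3208 CPM in control and 2264 to 2407 CPM with miR-101a. The pigment epithelium list had 18 of 23 lower and 1 higher, and the melanophore list, with which it shares 6 genes, 14 of 17 lower and 1 higher. pmela, which forms the fibrils on which melanin is laid down, was at 295, 282, 293 and 289 CPM in the control libraries and at 124, 126, 131 and 115 CPM in the miR-101a libraries, a log2 change of -1.23 ± 0.05 (adjusted p = 3.2e-11). Tyrosinase (TYR), the first enzyme of melanin synthesis, fell with a log2 change of -0.90 ± 0.08. Genes of the yellow and reflective pigment cells were mixed, with 17 lower and 7 higher of 32.

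Red cell genes fell. All 8 tested genes with a zebrafish globin symbol (hba and hbb) were lower, 5 at least 2-fold, and their summed level was 3470 to 3931 CPM in control and 1519 to 1611 CPM with miR-101a. hbae3, an embryonic alpha globin, was at 2859, 2982, 2699 and 3030 CPM in the control libraries and at 1128, 1179, 1182 and 1075 CPM in the miR-101a libraries, a log2 change of -1.34 ± 0.05 (adjusted p = 6.3e-11). 5 globin genes next to each other on chromosome 3 in the GRCz12tu order (hbaa1, hbae1.1, hbae1.2, hbae1.3 and hbae3) all fell at least 2-fold. The adult-type globin hbaa1 was counted 67 times in control and 3 times with miR-101a (library-scaled ratio 22.1, 95% exact interval 7.25 to 110, for counting error only). The symbol HBE1, named for an epsilon globin, belongs to 3 identifiers, of which ENSDARG00000087390 fell with a log2 change of -1.90 ± 0.07 and ENSDARG00000045143 with -3.06 ± 0.30. The third, ENSDARG00000069734, was under 1 CPM in every library and rose by 1.04 ± 0.38, a call lost without miR-101a replicate 2 (0.80), control replicate 2 (0.78) or control replicate 3 (1.09). Beyond the globins, alas2, which starts heme synthesis in erythroid cells, went from 269.6 to 301 CPM in control to 119 to 147 CPM with miR-101a (-1.13 ± 0.06), and the erythroid regulators gata1a (-0.78 ± 0.10) and klf1 (-0.48 ± 0.14) fell by less than 2-fold. Of the erythroid list, which holds the globins as well, 18 of 29 genes were lower and 2 higher. This count is therefore not independent of that of the globins.

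Genes of the liver and of yolk lipid export tended to be lower. The yolk syncytial layer packs yolk lipid into lipoproteins that feed the embryo, and the liver makes plasma proteins. Of 57 liver genes 30 were lower and 11 higher, and of 24 genes of yolk export 15 were lower and 6 higher. These lists share genes with each other and with the apolipoproteins below, apoea and apobb.1 among them, so the counts are not independent. The transferrin gene tfa, whose product carries iron, was at 904, 924, 879 and 917 CPM in the control libraries and at 298, 251, 218 and 223 CPM in the miR-101a libraries, a log2 change of -1.87 ± 0.09 (adjusted p = 9.6e-09). Apolipoproteins were lower in 19 of 27 genes, steeply in apoea (-2.37 ± 0.07) and apobb.2 (-1.99 ± 0.08) and little in the far more heavily counted apobb.1 (-0.37 ± 0.07) and apoa1a (-0.29 ± 0.06). leap2, which encodes an antimicrobial peptide of the liver, was counted 158 times in control and 3 times with miR-101a (scaled ratio 52.1, 95% exact interval 17.5 to 255). Plasma proteins of the complement did not follow, since 14 of 31 tested complement genes were higher and 4 lower. agt, the precursor of angiotensin, rose by 1.23 ± 0.16.

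Enzymes that make glucose mostly fell. Gluconeogenesis runs from pyruvate through pyruvate carboxylase, phosphoenolpyruvate carboxykinase and fructose bisphosphatase. PC (ENSDARG00000051939), pyruvate carboxylase, was at 137, 152, 116 and 159 CPM in the control libraries and at 28.9, 27.5, 26.5 and 28.9 CPM in the miR-101a libraries, a log2 change of -2.33 ± 0.09 (adjusted p = 5.2e-09), and the other identifier with that symbol changed by -0.24. fbp1b and FBP2, both bisphosphatases, fell with a log2 change of -2.34 ± 0.11 and -1.63 ± 0.08, whereas fbp1a rose by 0.91 ± 0.07. PCK1, the carboxykinase, fell with a log2 change of -1.14 ± 0.24. Glycogen genes took both directions, as phka1b, a regulatory subunit of phosphorylase kinase, fell with a log2 change of -3.31 ± 0.30 and PYGL, the liver phosphorylase, rose by 1.64 ± 0.09. In all 16 of 27 genes of the list were lower and 6 higher. Fatty acid binding proteins had 5 of 9 genes lower and 3 higher, with falls in FABP1 (-1.12 ± 0.05) and FABP2 (-1.59 ± 0.07). Both tested RBP2 identifiers, which bind retinol in the gut, fell with a log2 change of -2.61 ± 0.13 (ENSDARG00000070038) and -2.64 ± 0.22 (ENSDARG00000093774). The intestine list as a whole, which holds FABP2, had 9 of 29 genes lower and 11 higher (median 0.10). FKBP5, a chaperone partner that glucocorticoids induce, was at 115, 121, 104 and 113 CPM in the control libraries and at 5.48, 19.2, 11.5 and 11.4 CPM in the miR-101a libraries, a log2 change of -3.30 ± 0.31 (adjusted p = 0.00017). Of 26 genes of the glucocorticoid response 13 were lower and 7 higher.

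Cytochrome P450 genes, which oxidise sterols, vitamins and foreign compounds, were higher in 37 of 64 tested cases and lower in 7, 13 and 3 of them at least 2-fold. Enzymes of vitamin D took opposite directions. CYP2R1, which makes 25-hydroxyvitamin D, was at 16.6, 17.99, 15.4 and 17.8 CPM in the control libraries and at 1.62, 2.39, 2.02 and 2.67 CPM in the miR-101a libraries, a log2 change of -2.98 ± 0.12 (adjusted p = 9.5e-11), and CYP27B1, which activates it, fell with a log2 change of -2.72 ± 0.21. CYP24A1, which inactivates the hormone, rose by 1.96 ± 0.13. Glutathione S-transferases, enzymes of detoxification, were higher in 13 of 16 genes and lower in 1.

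In muscle, regulators and synapse genes were more often higher, and fast muscle genes were more often lower. Of 31 genes of muscle determination and the neuromuscular junction 18 were higher and 3 lower. CHRNG, the gamma subunit of the acetylcholine receptor of embryonic muscle, was at 4.32, 3.68, 3.23 and 3.24 CPM in the control libraries and at 47.2, 36.9, 48.9 and 46.3 CPM in the miR-101a libraries, a log2 change of 3.64 ± 0.11 (adjusted p = 2.4e-11). The adult-type subunit CHRNE rose by 0.63 ± 0.06, myogenin (MYOG) by 1.13 ± 0.11 and MYF6 by 1.17 ± 0.13, while both PAX7 identifiers, which mark muscle progenitors, fell (-0.57 and -0.55). Of 52 fast muscle genes 23 were lower, 2 of them at least 2-fold, and 5 were higher (median -0.16). Their summed level was 80500 to 93124 CPM in control and 66853 to 84232 CPM with miR-101a, so the treated range reached from below into the control range. tnnt2c, a troponin T gene, went from 31.1 to 34.9 CPM in control to 126 to 147 CPM with miR-101a and rose by 2.08 ± 0.06. Cartilage genes had 13 of 28 lower and 1 higher, among them fgfbp2b (-1.98 ± 0.18) and the matrix proteoglycan genes chad (-1.38 ± 0.14) and acana (-1.01 ± 0.15), while their summed level overlapped between groups (4943 to 6662 CPM in control and 5119 to 5816 CPM with miR-101a). MATN3 (ENSDARG00000069245) fell with a log2 change of -1.22 ± 0.17 and its copy ENSDARG00000069265 rose by 1.23 ± 0.20.

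Genes of the epidermis, kidney and motile cilia lists were more often higher than lower, mostly by small amounts. Of 38 pronephros genes 23 were higher and 3 lower, with the slit diaphragm gene NPHS1 at 1.04 ± 0.12 and the salt transporter SLC12A1 at 0.92 ± 0.16. The creatine synthesis enzyme GATM, which the list also holds, fell from 589 to 615 CPM in control to 245 to 326 CPM with miR-101a (-1.05 ± 0.07). The summed level of the pronephros list was lower, at 1518 to 1542 CPM in control and 1407 to 1508 CPM with miR-101a. Of 32 cilia genes 21 were higher and 2 lower, and of 31 axonemal dynein genes 20 and 1. The cilia list holds dynein genes as well, so these counts are not independent. FOXJ1, the master regulator of motile cilia, was at 10.32, 9.66, 10.8 and 9.89 CPM in the control libraries and at 22.8, 21.0, 22.1 and 23.3 CPM in the miR-101a libraries, a log2 change of 1.14 ± 0.07 (adjusted p = 3.6e-09). The median levels of the cilia and dynein lists were 4.87 and 3.76 CPM, where all genes had a median of 0.07 to 0.13, against 0.48 and 0.52 for the lists. Ciliary genes with an ift symbol, some of them in the cilia list, had 3 of 14 higher and 1 lower (median 0.01). Those with a bbs symbol had 0 of 8 higher and 1 lower (median -0.08). Epidermal genes had 32 of 50 higher and 7 lower, with rises in the keratin krt18a.2 (1.93 ± 0.46) and the desmosome gene PKP1 (1.07 ± 0.05) and a fall in krt99 (-1.16 ± 0.16). krt18a.2 was weakly expressed, at 0.21 to 0.457 CPM in control and 0.602 to 2.44 CPM with miR-101a. The summed level of the epidermal list overlapped between groups (22919 to 24205 CPM in control and 23619 to 27238.5 CPM with miR-101a). Cytokeratins as a family had 7 of 21 higher and 4 lower (median 0.05). Annexins and S100 calcium-binding proteins were higher in 20 of 28 genes, with ANXA2 at 1.204 ± 0.05. Both fibronectin identifiers rose, ENSDARG00000006526 by 1.43 ± 0.06 and ENSDARG00000019815 by 0.33 ± 0.05.

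Among signalling and patterning genes, Wnt ligands and Hairy genes moved in opposite directions. Wnt ligands were higher in 13 of 23 tested genes and lower in 0 (median 0.39 at 4.94 CPM, where all genes had 0.07 to 0.13), with WNT4 at 0.85 ± 0.08. Genes of the Hairy and Hey family, which Notch signalling turns on to hold back neuron formation, were lower in 13 of 21 and higher in 3, none of them 2-fold. her12 went from 54.9 to 61.0 CPM in control to 32.5 to 39.5 CPM with miR-101a (-0.72 ± 0.06) and her4.1 from 20.4 to 24.6 CPM in control to 12.5 to 14.3 CPM with miR-101a (-0.69 ± 0.08). The copies of her4 and her15 are alike and their reads may not be separable. Both identifiers of EN2, a homeobox gene of the boundary between midbrain and hindbrain, fell, ENSDARG00000026599 with -2.57 ± 0.10 and ENSDARG00000038868 with -2.34 ± 0.15. The former was at 18.8, 19.5, 18.6 and 19.5 CPM in the control libraries and at 3.64, 2.54, 3.42 and 3.09 CPM in the miR-101a libraries, with no overlap. Of the list of brain patterning genes 11 were higher and 17 lower of 44. Tailbud genes, which pattern the embryo at the segmentation stage, were higher in 8 of 15 and lower in 3 (median 0.43 at 4.13 CPM, in the same range of levels), with cdx4 at 1.83 ± 0.19. The thyroid and pituitary list had 3 of 17 genes higher and 2 lower, a smaller share than among all genes. The rises were the hormone genes prl (1.70 ± 0.12), POMC (1.45 ± 0.27) and smtla (2.03 ± 0.39), and the thyroid protein TG fell with a log2 change of -1.90 ± 0.19. Levels were low in smtla, at 0.0703 to 0.21 CPM in control and 0.441 to 0.748 CPM with miR-101a. POMC was at 0.492 to 0.695 CPM in control and 1.11 to 2.24 CPM with miR-101a.

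**Figure D4:**
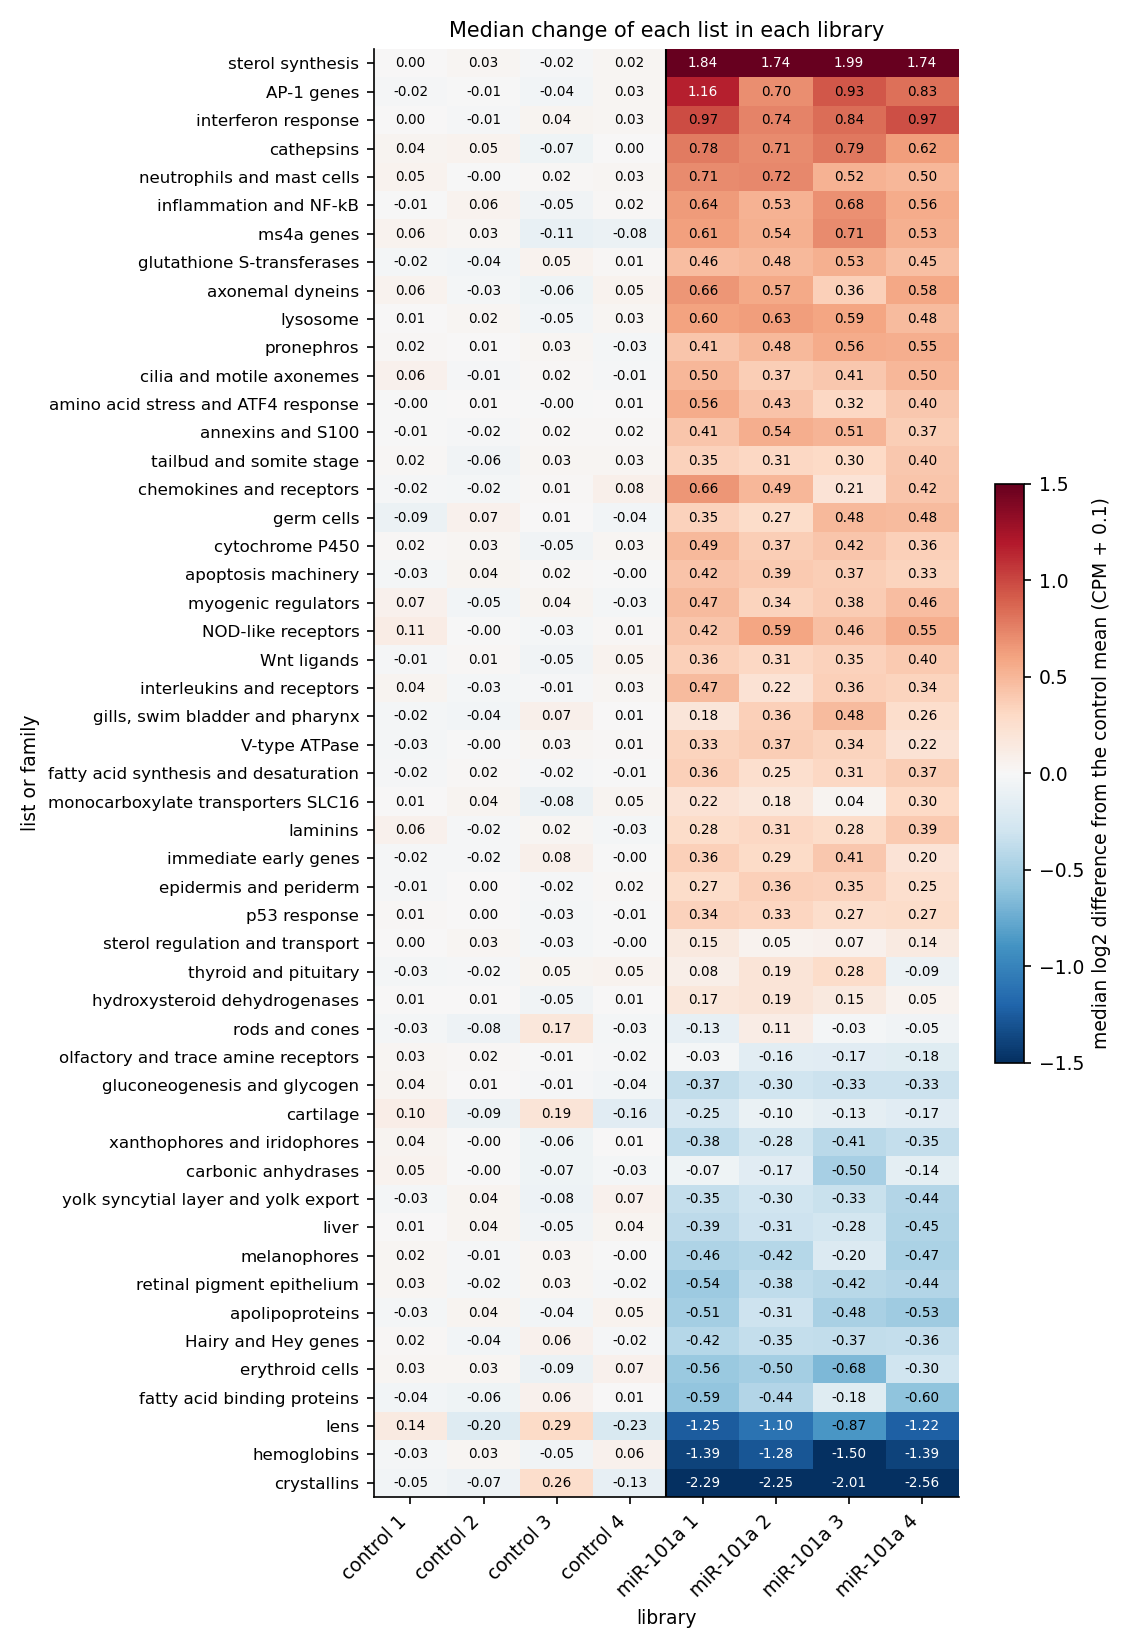
Rows are described lists and families, columns are the 8 libraries, and each cell gives the median over the members of the log2 difference from the control mean, computed on CPM + 0.1. Treated libraries carry the same sign in nearly all rows, such as 1.74 to 1.99 for sterol synthesis and -2.56 to -2.01 for crystallins, while rods and cones and the thyroid and pituitary list change sign between treated libraries.

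Several lists of core machinery had small falls with few or no called rises, though their medians were too small to be described by the rule of size, and others did not. None of the 37 ribosome biogenesis genes was higher and 27 were lower (median -0.21). Mitochondrial ribosomal protein genes had 38 of 73 lower and 0 higher (-0.18), complex I subunits 28 of 48 lower and 1 higher (-0.17), and splicing factors 30 of 51 lower and 1 higher (-0.16). The hnRNP genes, which package nascent RNA, were lower in 18 of 24 and higher in 0 (-0.25). The median levels of these lists lay between 23.5 CPM (mitochondrial ribosomal proteins) and 223 CPM (hnRNP genes), where all genes had medians of -0.02 to -0.11. Translation initiation factors had 27 of 65 lower and 14 higher, and proteasome subunits 19 of 54 lower and 7 higher. The tRNA synthetases, which charge tRNAs with amino acids, went the other way, with 13 of 21 higher and 2 lower (median 0.22).

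Genes linked to miR-101 in mammals showed no fall of 2-fold. EZH2 was at 89.6, 93.3, 91.8 and 94.7 CPM in the control libraries and at 56.9, 63.7, 59.6 and 58.7 CPM in the miR-101a libraries, a log2 change of -0.63 ± 0.04 (adjusted p = 2.3e-08), with no overlap. Of 39 genes reported as miR-101 targets in mammals 16 were lower and 8 higher, and none changed 2-fold (median -0.20, at a median level of 41.4 CPM, where all genes had -0.03 to -0.07). Whether the zebrafish genes carry a seed match was not analysed here. Of 29 Polycomb genes 13 were lower and 4 higher. The exception in size was cbx7a, a chromodomain subunit of Polycomb repressive complex 1, which was at 2.73, 2.43, 2.18 and 2.63 CPM in the control libraries and at 19.002, 16.2, 17.5 and 16.3 CPM in the miR-101a libraries, a log2 change of 2.79 ± 0.10 (adjusted p = 2.4e-11).

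Several genes with large changes belong to none of the lists described above. Upward, the secreted hormone gene STC2 (ENSDARG00000056680) went from 14.1 to 14.6 CPM in control to 42.6 to 46.0 CPM with miR-101a (1.63 ± 0.05), IGFBP1, a binding protein of insulin-like growth factors, from 12.2 to 14.9 CPM in control to 52.3 to 61.9 CPM with miR-101a (2.08 ± 0.07), and MFSD4A (ENSDARG00000008263), a transporter-like protein, from 3.97 to 4.69 CPM in control to 20.9 to 22.3 CPM with miR-101a (2.36 ± 0.08). Downward, the chromatin remodeller smarca5 went from 372 to 401 CPM in control to 164 to 189.7 CPM with miR-101a (-1.09 ± 0.05), CDCA7, a cell cycle gene, from 96.9 to 106 CPM in control to 39.6 to 42.1 CPM with miR-101a (-1.32 ± 0.04), MIEN1 from 208 to 217 CPM in control to 79.1 to 90.7 CPM with miR-101a (-1.34 ± 0.05), nlk1, a kinase related to Nemo-like kinase, from 156 to 163 CPM in control to 76.9 to 79.4 CPM with miR-101a (-1.02 ± 0.04) and KLF3, a repressor of the Krüppel-like family, from 60.4 to 62.3 CPM in control to 26.6 to 28.4 CPM with miR-101a (-1.15 ± 0.04). No treated library reached a control library in these genes, but the rule for naming genes required this. Choice by the smallest p also favours a small spread within groups. Copies under a shared symbol were also compared. Of 1344 symbols that belong to 2 tested identifiers, both copies were higher in 149 (11.1%), both were lower in 132 (9.82%), and the copies were called in opposite directions in 153 (11.4%). These shares were read beside the 26.1% of all genes called higher and the 23.1% called lower, and whether they differ from what those give was not tested. Both copies changed at least 2-fold the same way in 17 of these symbols and in opposite ways in 4, among them MATN3, APOD and NAT16, named after their values were seen.

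**Figure D5:**
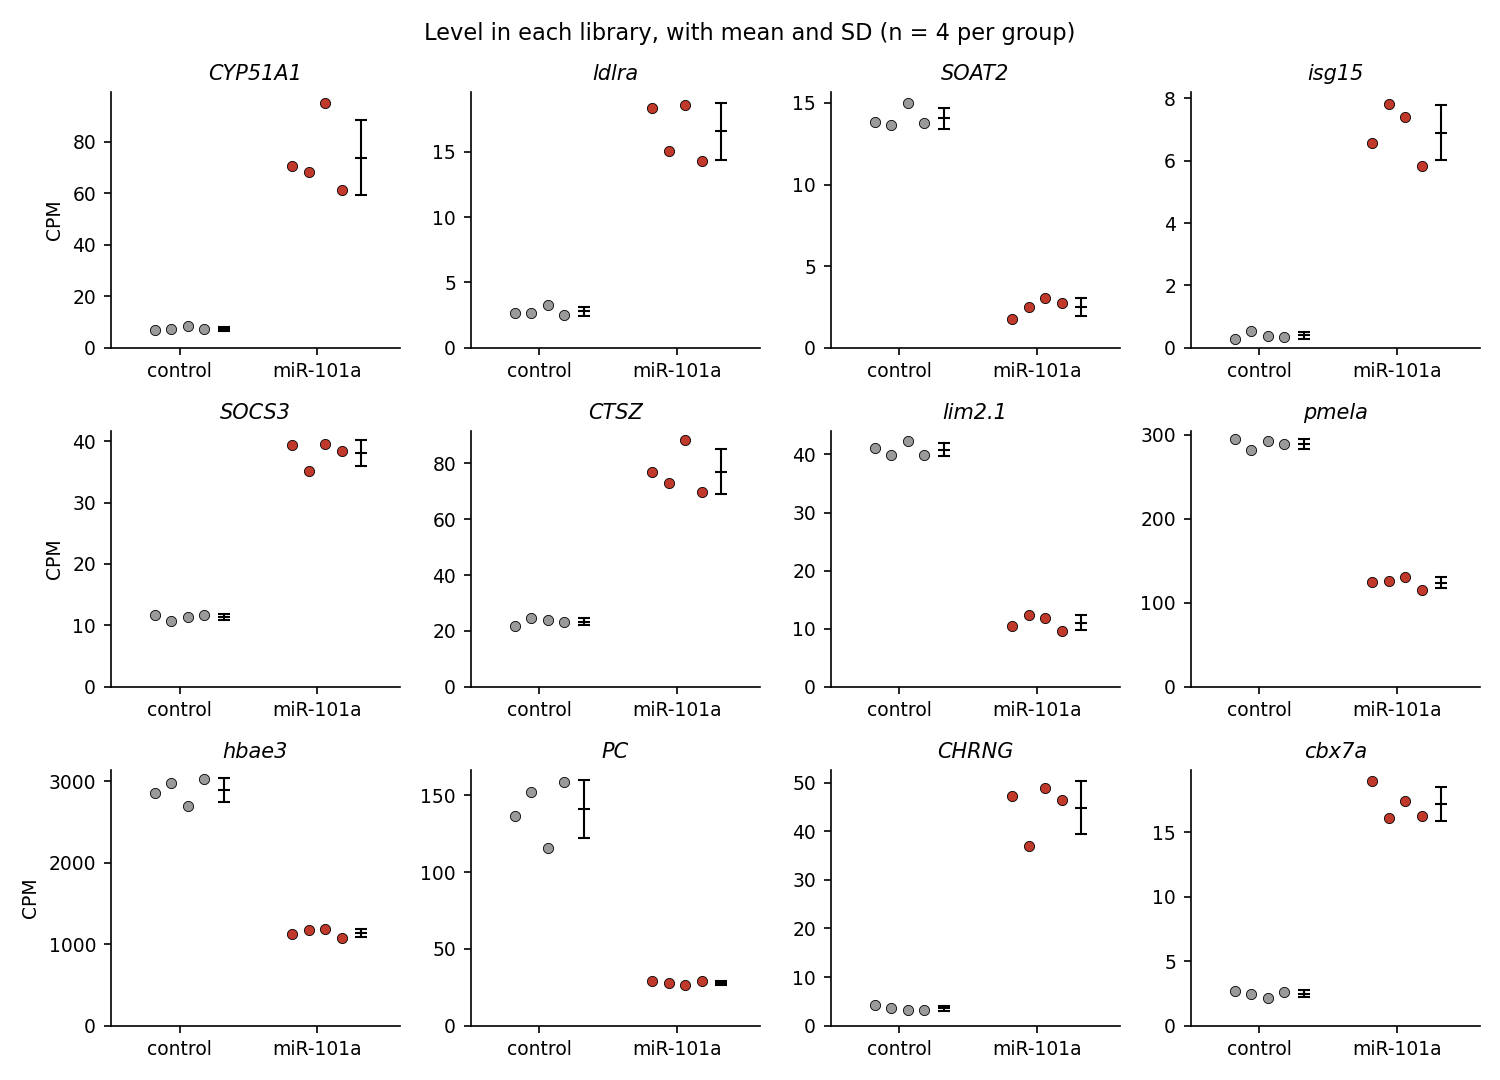
Each panel shows the CPM of one gene in the 4 control (grey) and 4 miR-101a (red) libraries, with the group mean and SD beside the points; the vertical axes are linear and start at 0. In all 12 panels the groups do not overlap, as for CYP51A1 (from 6.76 to 8.33 CPM in control to 61.4 to 94.99 CPM with miR-101a) and SOAT2 (from 13.7 to 15.01 CPM in control to 1.74 to 3.05 CPM with miR-101a).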

How the data were processed

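Messenger RNA of whole zebrafish was sequenced from TruSeq v2 libraries, per the labels' protocols. The deposited table holds raw read counts per gene. Per the submitters' processing notes, tools included featureCounts 1.4.6-p4, STAR 2.4.1d and bcl2fastq 1.8.4, and the build was GRCz10. The authors also deposited RPKM values, from which gene lengths were derived for the length deciles and the gene length offsets. The derivation used library totals in a recycled order. For 7554 genes with at least 300 counts per library, the derived length then varied between libraries by at most 0.027% (coefficient of variation). With each library's own total the median variation was 18.4%. The 8 libraries, with totals of 19804199 to 30383374 counts, were fitted alone in edgeR 4.0.16 under R 4.3.3 (limma 3.58.1): genes were kept by filterByExpr with a minimum count of 10, scaled by TMM and tested by the robust quasi-likelihood test with Benjamini-Hochberg adjustment. A gene was called at an adjusted p under 0.05. Symbols came from the gene name table, and many are shared by several identifiers. Lists were described where at least 8 members were tested and the median was at least 0.3 in size or 25 percent changed 2-fold. Genes were named, in each direction, as the 12 called genes with the largest change, the smallest p or the highest level, each with at least 1 CPM and no overlap, plus up to 3 per described list and EZH2. Other named genes were chosen after their values were seen. The members and lists were chosen with earlier results of these data known. The steps were tested on simulated data. Alternatives were DESeq2 1.42.0, other scalings and filters, a replicate block, fits with the other libraries, a minimum change of 1.2-fold, gene length offsets and leaving out each library. Seed sites and promoter motifs were not analysed here. A few genes of the lists are counted but not reported here by name.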

Additional observations from a re-analysis of the deposited data

Results flagged for a closer look

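Dixon's 95% critical value was applied to 316 groups of 4 libraries, one per group and gene named, with hbaa1 and leap2 left out. In 27 of them the gap of a library to the nearest other, divided by the range of the group, exceeded that value. Chance gives about 1 group in 20. Values are CPM, with the range of the other libraries of the group. In control replicate 1, cdx4 was at 0.713 against 0.809 to 0.823, FOSL2 was at 9.40 against 8.02 to 8.05 and sesn2 was at 8.43 against 9.63 to 9.84 CPM. In control replicate 2, ldlrb was at 27.4 against 24.04 to 24.6 and MFSD4A (ENSDARG00000008263) was at 4.69 against 3.97 to 4.03 CPM. In control replicate 3, apobb.1 was at 3093 against 3727 to 3832, apobb.2 was at 130.0 against 161 to 165 and crx was at 43.2 against 29.1 to 31.0 CPM. In the same library, CRX was at 38.3 against 26.5 to 26.7, ldlra was at 3.30 against 2.51 to 2.65 and NR4A1 was at 78.3 against 72.6 to 73.4 CPM. In the same library, SOAT2 was at 15.01 against 13.7 to 13.8 CPM. In control replicate 4, KLF3 was at 62.3 against 60.4 to 60.6 and NPC2 (ENSDARG00000096979) was at 4.02 against 5.27 to 5.41 CPM. In miR-101a replicate 1, ACP5 was at 14.2 against 3.90 to 4.70, cxcl8a was at 4.85 against 1.45 to 1.64 and HBE1 (ENSDARG00000045143) was at 14.6 against 5.73 to 6.61 CPM. In the same library, mmp13a was at 26.6 against 7.29 to 9.19 and sesn2 was at 31.3 against 26.2 to 27.0 CPM. In miR-101a replicate 2, HBE1 (ENSDARG00000069734) was at 0.847 against 0.412 to 0.478 and PAX5 was at 0.648 against 0.917 to 0.9501 CPM. In miR-101a replicate 3, IDI1 was at 61.2 against 55.5 to 56.3, NPC2 (ENSDARG00000096979) was at 3.12 against 0.993 to 1.196 and prl was at 13.5 against 10.27 to 10.4 CPM. In the same library, saga was at 3.197 against 2.52 to 2.63 CPM. In miR-101a replicate 4, bada was at 17.6 against 21.1 to 21.6 and FABP1 was at 148 against 169 to 171 CPM. No explanation of these values was tested.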

How the results depend on the processing

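The main counts of 5339 higher and 4716 lower genes became 2451 and 1454 in a fit of all 12 libraries, and 2837 and 1727 when a change beyond 1.2-fold was required. A fit of 11 libraries, which left out miR-29a replicate 3 alone, gave 4989 higher and 5099 lower genes. The cause of the lower counts with 12 libraries was not tested further. The settings were also run for 158 genes named with a value in the text, hbaa1 and leap2 not among them. Of these, 26 lost their call with 12 libraries (among them SREBF1, il1b, cxcl8a, crx, HSF4, her12, her4.1 and EGLN2) and 12 with the 1.2-fold requirement. With 11 libraries 3 lost it (il1b, mmp13a and an HBE1 identifier), with DESeq2 1 (the same HBE1) and with the replicate block 1 (mmp13a). None reversed in any setting run. Of the called genes 53.1% were higher, but 49.5% with 11 libraries (without miR-29a replicate 3), 47.8% with gene length offsets and 48.8% with DESeq2, so which direction was more frequent depends on these settings. Leaving out each library gave 4781 to 5305 higher genes, 4121 to 4712 lower genes, 789 to 889 higher and 452 to 496 lower at least 2-fold, and 52.5% to 53.7% higher. Deviations from the group mean correlated at 0.031, -0.084, 0.171 and 0.092 in same-numbered libraries. In other pairs they correlated at -0.246 to 0.221, so these few values cannot decide whether the numbers pair the samples. A fit with the replicate block gave 5468 higher and 4970 lower genes. Of the list and stem medians computed, those that changed sign were rods and cones (0.05), at -0.02 with gene length offsets, -0.01 without miR-101a replicate 4 and -0.0012 without control replicate 3, and the fndc stem (-0.12), at 0.0023 with a filter of 1 CPM. Over all settings, 54 medians moved by more than the SD of that median among the treated libraries, and 1332 did not. Of those that moved, 10 did so with the filter of 1 CPM and 9 with gene length offsets. The 1332 include 77 from the 1.2-fold requirement, which leaves the log2 changes as they are, so these could not move. Medians without a filter were taken over the genes tested in the main fit, so they cannot show what the filter removed. Low counts limit the precision of weakly expressed genes, and intervals on counts cover counting error only.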

Other observations

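The following genes were chosen after their values were seen, and no test of them as a group was run. The prolyl hydroxylases that mark hypoxia-inducible factors for degradation were lower in the 4 tested genes with an EGLN symbol, against 23.1% of all genes. The hypoxia response list had 12 of 29 genes lower and 9 higher (median -0.02), from EGLN2 at -1.26 to IGFBP1 at 2.08. EGLN2 was at 10.7, 9.76, 9.46 and 9.46 CPM in the control libraries and at 5.04, 3.19, 3.82 and 4.201 CPM in the miR-101a libraries, a log2 change of -1.26 ± 0.12 (adjusted p = 5.6e-07) by edgeR's quasi-likelihood test. EGLN3 (-1.03 ± 0.17) and both EGLN1 identifiers (-1.16 ± 0.17 and -0.47 ± 0.07) fell as well. In all 4 the groups did not overlap, which held for 44.2% of all genes.

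PAX5, a transcription factor of the boundary between midbrain and hindbrain, was at 3.94, 4.36, 3.199 and 4.404 CPM in the control libraries and at 0.9501, 0.648, 0.919 and 0.917 CPM in the miR-101a libraries, a log2 change of -2.18 ± 0.18 (adjusted p = 9.2e-08). EN1 fell with a log2 change of -1.102 ± 0.12, and the 2 identifiers of FGF8, the signal made there, fell with a log2 change of -1.01 ± 0.17 and -0.40 ± 0.12. These genes were picked for their falls, and values of other boundary genes, such as pax2, wnt1 and gbx2, are not given here. The brain patterning list, which names those genes as well, had 17 of 44 lower and 11 higher (median -0.12). Among genes that glucocorticoids induce in mammals, KLF9 was at 6.88, 7.69, 6.93 and 8.11 CPM in the control libraries and at 1.24, 2.29, 1.84 and 1.95 CPM in the miR-101a libraries with a log2 change of -2.04 ± 0.15 (adjusted p = 4.3e-08), and the tyrosine aminotransferase TAT fell with a log2 change of -1.32 ± 0.12. KLF9 and TAT were also picked for their falls. The glucocorticoid response list had 13 of 26 genes lower and 7 higher (median -0.29).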
